A study of Mus musculus with 2 samples.

Results

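The contacts described here lie within the lower distal VH section of Igh, the mouse heavy chain locus, about the D-near side of its distal VH genes, chr12:115820001-116600000 in the mm9 build. Its members were all pairs of a forward and a reverse HindIII fragment whose midpoints both lay in these 780 kb and were at least 10 kb apart. They numbered 255 of the 10415 pairs at that distance in the whole map, and joined 16 forward with 17 reverse fragments of 98 and 108 in all. Contacts were measured by 5C, in which crosslinked chromatin is cut with HindIII, ligated, and read out with primers on fragment ends, so that each forward-reverse pair gets a count of ligation products. There was 1 group of 2 replicates, splenic B cells of C57Bl/6 mice sorted as CD43- with magnetic beads and then kept for 40 hours in LPS and IL4. The series description calls them biological replicates, and the labels do not say how many mice each came from. No other condition, genotype or cell type was used, so the comparisons below are between regions of 1 locus.

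Each B cell builds its heavy chain gene by joining a D segment to a J segment and then a V segment to that DJ unit, and the DNA between the joined segments is lost from that allele. The V segments are spread over most of the locus, with the large Ighv1 family and the interspersed Ighv8 family farthest from D. In developing B cells the locus folds so that distal V segments come near D and J, and loop extrusion by cohesin, halted at CTCF sites, is held to take part. LPS with IL4 makes mature B cells divide and switch their constant gene, a step that acts at the other end of the locus. Mature cells have finished V to DJ joining, so alleles in a culture differ in which V segments they still hold. A low count from fewer alleles that hold both fragments and one from fewer contacts per allele cannot be told apart in these data.

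The section was sparsely probed. Its 33 fragments had a median length of 2505 bp, from 1012 to 9338 bp, and covered 14.9% of the 780 kb, from chr12:115823136 to chr12:116561326. The longest unprobed gap, 165 kb between reverse fragment 464 (chr12:115993659-116000828) and reverse fragment 499 (chr12:116166285-116168748), split it into a D-near group of 12 fragments and a D-far group of 21. A gap of 99.5 kb separated forward fragment 573 (chr12:116436677-116439886) from reverse fragment 606 (chr12:116539430-116542358). The last 4 fragments, reverse 606, forward 609 (chr12:116553198-116556522), reverse 610 (chr12:116556523-116559255) and forward 611 (chr12:116559256-116561326), lay close together at the D-far edge. The nearest fragment below the section, forward 415, missed it by 0.855 kb of midpoint position, and the nearest above it, forward 624, by 8.16 kb. At the 10 kb limit, forward 423 with reverse 418 (11.7 kb, 179 and 547 counts) was a member. Forward 517 with reverse 514 (9.99 kb, 903 and 6961 counts) was not. A gene table on another assembly, GRCm38.p6, lists 183 Ighv entries, of which 92 are Ighv1 and 16 Ighv8. Its coordinates belong to another build, so fragments are named by primer number and position alone.

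The 2 replicates gave the section unlike shares of the sequencing. It held 65679 of 14503618 counts in replicate 1, or 0.453% (95% Wilson interval 0.449 to 0.456), and 239212 of 17658603 in replicate 2, or 1.35% (1.35 to 1.36). These totals include the counts of pairs under 10 kb apart. Of the counts at 10 kb or more the section held 2.13% in replicate 1 and 4.31% in replicate 2, with 2.45% of the pairs. All pairs at that distance together had a share of the total 1.48 times higher in replicate 2. The median section count was 52 in replicate 1 (quartiles 14 and 232) and 247 in replicate 2 (quartiles 94 and 804). For a single pair with 52 counts the exact 95% Poisson interval is 38.8 to 68.2. For a single pair with 247 counts it is 217 to 280. Reads carry no molecular identifiers, so the intervals cover counting error only. A count of 0 was recorded for 7 pairs in replicate 1 and for 0 in replicate 2. These 7 pairs spanned at least 354 kb, and 6 of them held forward 429, forward 542, reverse 428 or reverse 528. They had 10 to 118 counts in replicate 2.

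The shift between the replicates was wider in the section than in the neighbouring regions or the locus as a whole. As a share of the library, replicate 2 exceeded replicate 1 for 231 of the 255 pairs (90.6%), against 66.9% of all pairs. The median log2 share of replicate 2 over replicate 1 was 1.74 in the section, 1.0 in the 780 kb below it, 0.67 in the 780 kb above it and 0.53 over all pairs. Shares over 4-fold apart were found for 120 section pairs (47.1%) and for 21.3% of all pairs. The shift was spread over the fragments. In 32 of 33 fragments it was larger with partners inside the section than with partners outside. The other was reverse 435 (chr12:115877939-115880010), at -0.21 inside and -0.15 outside on the log2 scale. Reverse 528 (chr12:116286772-116293346) had the widest shift inside, 3.89, and reverse 450 (chr12:115938466-115941645) had 3.49. With 1 library on each side no test of this shift was possible, and every value below is therefore given for each replicate.

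**Figure D1:**
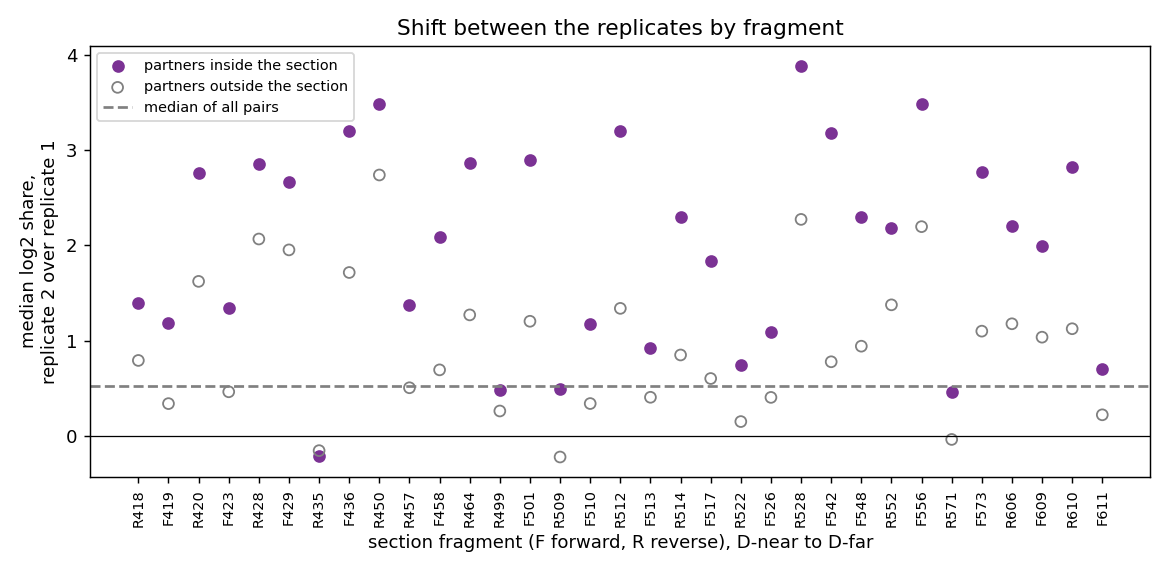
Median log2 share of counts in replicate 2 over replicate 1 for each of the 33 section fragments, in genome order from D-near to D-far, with partners inside the section (filled) and outside it (open). Filled points reach 3.89 at reverse 528 and lie above the open ones for 32 fragments, and the dashed line marks the median of all pairs, 0.53.

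The order of the section's pairs was partly shared between the replicates. Spearman's rho between the replicates over the 255 pairs was 0.770 for counts over a distance curve, a smooth fit of counts on distance over the whole map that gives the expected count. The same coefficient was 0.756 over all pairs. It was 0.763 after division by primer factors, against 0.566 over all pairs after the same division. Pairs share fragments and primers, so these are descriptions of 2 libraries. A primer factor is the mean ratio of observed to expected count over all pairs of that primer, each divided by the factor of the partner primer. Reverse factors of the map were scaled to a geometric mean of 1, and forward factors were not, so forward factors compare only with each other. Among the section's fragments, forward factors ran from 0.0822 to 2.4 in replicate 1 and from 0.254 to 5.10 in replicate 2. Reverse factors ran from 0.0878 to 4.71 and from 0.376 to 2.77. The counts of 2 pairs with different primers are thus on different scales, and corrected values are given beside the counts.

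Counts inside the section were lower at longer distances, but unevenly. Pairs 10 to 50 kb apart had a median of 467 counts in replicate 1 and 1581 in replicate 2. Those of 50 to 100 kb had 142.5 and 400, those of 100 to 200 kb 72.5 and 316, and those of 200 to 400 kb 61 and 289. Beyond 400 kb the medians were 13.5 and 82.5. The medians from 100 to 400 kb were thus nearly level. All other pairs of the map had 155 counts at 100 to 200 kb and 71 at 200 to 400 kb in replicate 1, and 260 and 131 in replicate 2. The slope of log2(count + 1) over a 10-fold change in distance was -2.24 in replicate 1 and -2.69 in replicate 2, a mean of -2.47 ± 0.32 (SD, n = 2). The 780 kb below the section gave -2.47 ± 0.31, the 780 kb above it gave -3.37 ± 0.26, and all other pairs over the same distances gave -3.10 ± 0.07 (SD, n = 2).

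**Figure D2:**
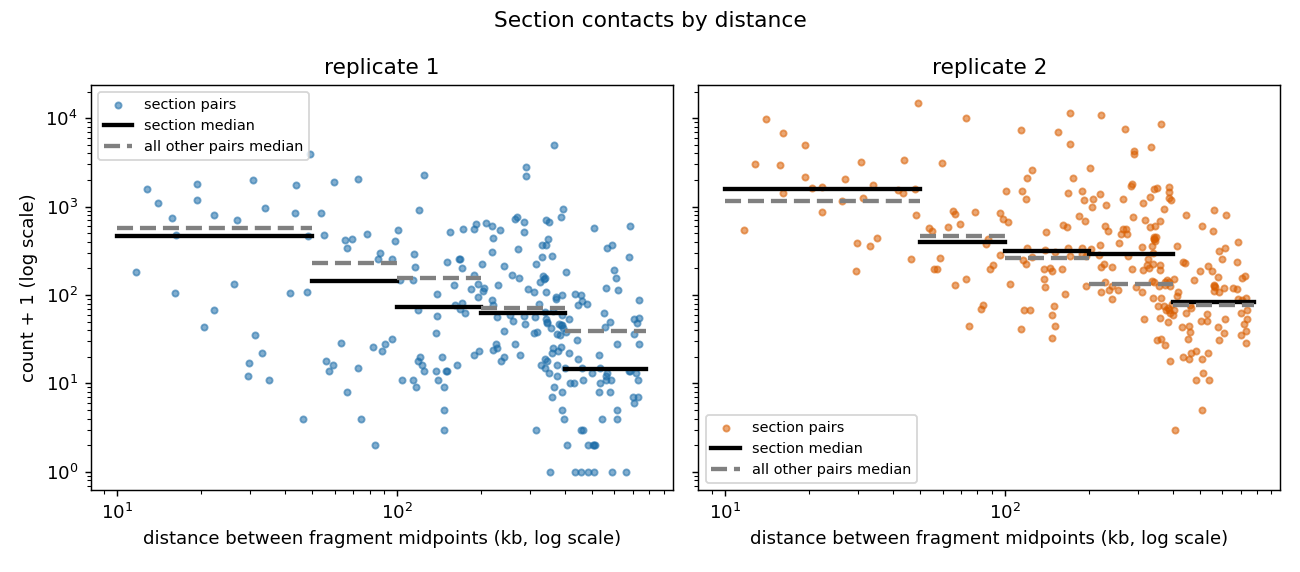
Counts plus 1 of the 255 section pairs against distance between midpoints, both on log axes, for each replicate (points), with the median of section pairs (solid) and of all other pairs (dashed) in 5 distance classes. The solid line stays nearly level from 100 to 400 kb, at 72.5 and 61 counts in replicate 1 and 316 and 289 in replicate 2, and is lowest beyond 400 kb, at 13.5 and 82.5.

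After primer correction, the longest pairs inside the section had lower medians than other pairs of the map at that distance in both replicates. On counts the section was lower in replicate 1 only, with medians of 13.5 against 38, and 82.5 against 76 in replicate 2. Over the 68 section pairs beyond 400 kb, the median log2 ratio of corrected observed to expected count was -0.90 in replicate 1 and -1.13 in replicate 2. The 1616 other pairs of 400 to 780 kb had -0.40 and -0.44. Lower medians were not particular to the longest pairs. The section had -2.35 and -1.08 at 10 to 50 kb, against -1.30 and -1.04 for other pairs. At 50 to 100 kb it had -2.18 and -1.66, against -1.47 and -1.21, and at 100 to 200 kb -1.48 and -1.14, against -0.72 and -0.76. At 200 to 400 kb it was lower in replicate 1 only, at -0.66 and -0.31 against -0.52 and -0.52. Medians lie below 0 because the expected curve follows the mean, which a few large counts raise. A second correction treated log2(count + 1) as the sum of a distance curve, a forward and a reverse primer term, and its remainder, called the log2 residual here, is near 0 for a typical pair. By that measure the pairs beyond 400 kb had -0.35 and -0.39, and the others 0.03 and -0.03. Section pairs of 100 to 200 kb had -0.48 and -0.24, against -0.04 and -0.12. In the remaining classes the section was not lower in both replicates by residual. These distance classes were chosen after the data were seen, and no test was made of them.

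Over all distances no difference between the section and its neighbours passed a test, since 2 replicates allow no p under 0.5. Its median log2 corrected ratio was -1.07 in replicate 1 and -0.84 in replicate 2 (-0.95 ± 0.17, SD, n = 2), against -0.48 and -0.41 over all pairs. The 783 pairs within the 780 kb directly below it had -0.76 and -0.61. The section minus this region gave -0.31 and -0.22, lower in both replicates (two-sided exact sign-flip permutation p = 0.5, the smallest possible). Without primer correction the sign turned, to 0.21 and 0.75. The 354 pairs within the 780 kb directly above it, probed up to chr12:117350186, had -0.44 and -0.86, so that the difference was -0.63 in replicate 1 and 0.03 in replicate 2 (exact p = 1). Section fragments with the rest of the locus, 2848 pairs, had -0.46 and -0.41, and section pairs minus these gave -0.61 and -0.43 (exact p = 0.5). Those pairs mostly span longer distances, and matching distance classes left -0.23 and 0.01, so in replicate 2 the difference was near 0 at matched distance (exact p = 1).

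Few section pairs passed a test against the whole map. A pair was called when the upper-tail q of its deviation from the distance curve, adjusted over all 10415 pairs, was under 0.01 in both replicates. On counts 0 of 255 section pairs were called, where 25 of all pairs (0.24%) were. Replicate 1 alone called 1 section pair, forward 611 with reverse 509, and 0.432% of all pairs. Replicate 2 alone called 0, and 0.365% of all pairs. With no adjustment, at p under 0.05 from the same Weibull fit in each replicate, 3 section pairs passed (1.18%), against 1.64% of all pairs. These were the pairs of forward 611 with reverse 509 and reverse 522, and that of forward 501 with reverse 435. On primer-corrected counts 1 section pair (0.392%) was called in both replicates, against 0.317% of all pairs. Replicate 1 alone called the same pair, against 0.451% of all pairs, and replicate 2 alone called 3, against 0.394%. Without adjustment, 3 corrected section pairs passed at 0.05 in each replicate (1.18%), as did 1.19% of all pairs. The share of called pairs in the section was thus near that of the map.

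The called pair was forward 611 with reverse 528, 270 kb apart. It held 761 counts in replicate 1 and 7659 in replicate 2, 8.27 times the share of replicate 1. Its ratio to the distance curve was 2.39 and 14.5, which gave no call on counts. Reverse 528 was a primer of low yield in replicate 1, with a factor of 0.0878, and after primer correction the ratios were 14.3 and 19.0 (q = 1.2e-05 and 3.3e-10 by the Weibull fit over all pairs). The pair held 55.2% and 56.5% of all counts of reverse 528 at 10 kb or more, and so entered its own primer factor. With primer factors fitted without called pairs the ratios were 13.5 and 19.9, but the call was lost, at q = 0.66 and 0.65 by the Weibull fit. With those factors 17 pairs of the whole map were called, against 33 before.

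Forward 611 had high counts with several neighbouring reverse fragments in both replicates. With reverse 509 (chr12:116193782-116198883), 364 kb away, it had 4976 and 8524 counts, a ratio to the distance curve of 32.0 and 22.8, or 6.58 and 11.4 after primer correction. With reverse 522 (chr12:116268138-116273276) it had 2823 and 4291 counts, and with reverse 512 (chr12:116206582-116215115) 673 and 1624. Reverse 514 (chr12:116216128-116218064), close by, had 700 and 1603. Reverse 499, on the D-near side of reverse 509, had 938 and 1181 counts. In log2 residuals, reverse 509 had 3.49 and 4.17, reverse 512 had 2.10 and 1.67, reverse 514 had 1.57 and 1.54, reverse 522 had 2.17 and 2.4 and reverse 528 had 4.26 and 5.11. Reverse 499 had -0.20 and -0.14, and reverse 571 on the D-far side (chr12:116433753-116436207) had 0.11 and -0.02. Reverse 552, between reverse 528 and reverse 571, had 0.69 and 1.28. Forward 611 had further high residuals in the D-near group, 1.75 and 2.02 with reverse 450 (113 and 798 counts) and 1.70 and 0.85 with reverse 457 (364 and 314 counts).

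Its neighbours at the D-far edge, read with other primers, also had high residuals with partners in or near that stretch. Forward 609 had 276 and 688 counts with reverse 509, 522 and 1714 with reverse 522, and 27 and 557 with reverse 528. Its residuals there were 1.15 and 1.43, 1.56 and 1.96, and 1.32 and 2.22, but with reverse 514 they were -0.06 and 0.27. It too was high with reverse 450, at 1.56 and 1.69, and with reverse 499, at 1.35 and 0.82. Reverse 610 had 154 and 488 counts with forward 526 (chr12:116282495-116284504), a residual of 1.41 and 1.11. With forward 542 (chr12:116335333-116337130), which lies on the D-far side of reverse 528, it had 439 and 10918 counts, a residual of 3.50 and 5.61. The corrected ratios of that pair were 7.12 and 24.0, with q = 0.14 in replicate 1 and 1.7e-16 in replicate 2 by the Weibull fit. Its share was 20.4 times higher in replicate 2. Reverse 606 had 120 and 993 counts with forward 542 and residuals of 1.53 and 2.17. With forward 510 (chr12:116198884-116203900) the residuals were 0.95 and 0.25 for reverse 606, and -0.85 and -1.05 for reverse 610. Residuals of these fragments were thus not high throughout.

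Over the 20 pairs that join these 4 fragments to partners 360 to 520 kb from the section's start, the median residual was 1.36 in replicate 1 and 1.30 in replicate 2. It was above 0 in both replicates for 17 of the 20, against 33.2% of all pairs of the map. The 28 pairs with partners in the first 360 kb had -0.06 and -0.01, and 9 were above 0 in both. There the medians were above 0 for forward 609 (0.36 and 0.29) and forward 611 (0.66 and 0.09). They were below 0 for reverse 606 (-0.65 and -0.12) and reverse 610 (-0.40 and -0.01). The 12 pairs with partners beyond 520 kb had 0.20 and 0.77, and 6 were above 0 in both. Some of these were as high as pairs of the window, such as reverse 610 with forward 548 (1.78 and 2.82) and reverse 606 with forward 556 (1.13 and 1.34), so the window has no sharp limit on its D-far side. By fragment, the 5 pairs in the window had medians of 2.17 and 2.4 for forward 611, 1.15 and 1.43 for forward 609, 1.10 and 1.11 for reverse 610, and 0.95 and 0.80 for reverse 606. The window was chosen after the values were seen, pairs of 1 fragment share a primer, and no test was made.

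**Figure D3:**
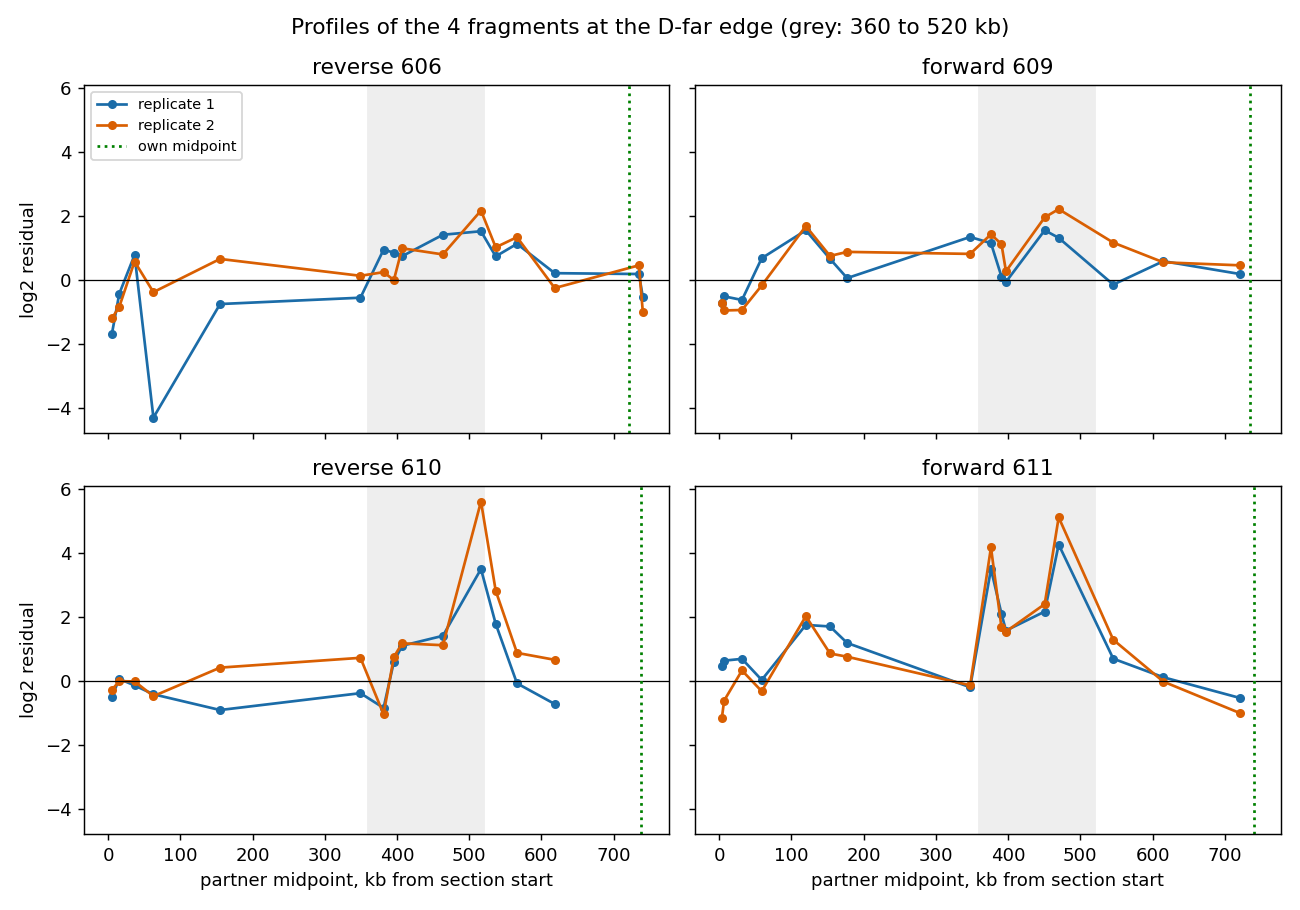
Log2 residual, after distance and primer terms, of the 4 D-far edge fragments with each partner, by the partner's midpoint in kb from the section's start, in replicate 1 and replicate 2. The grey band marks 360 to 520 kb, where 17 of 20 pairs lie above 0 in both replicates, with peaks at 5.11 for forward 611 and 5.61 for reverse 610 in replicate 2.

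**Figure D4:**
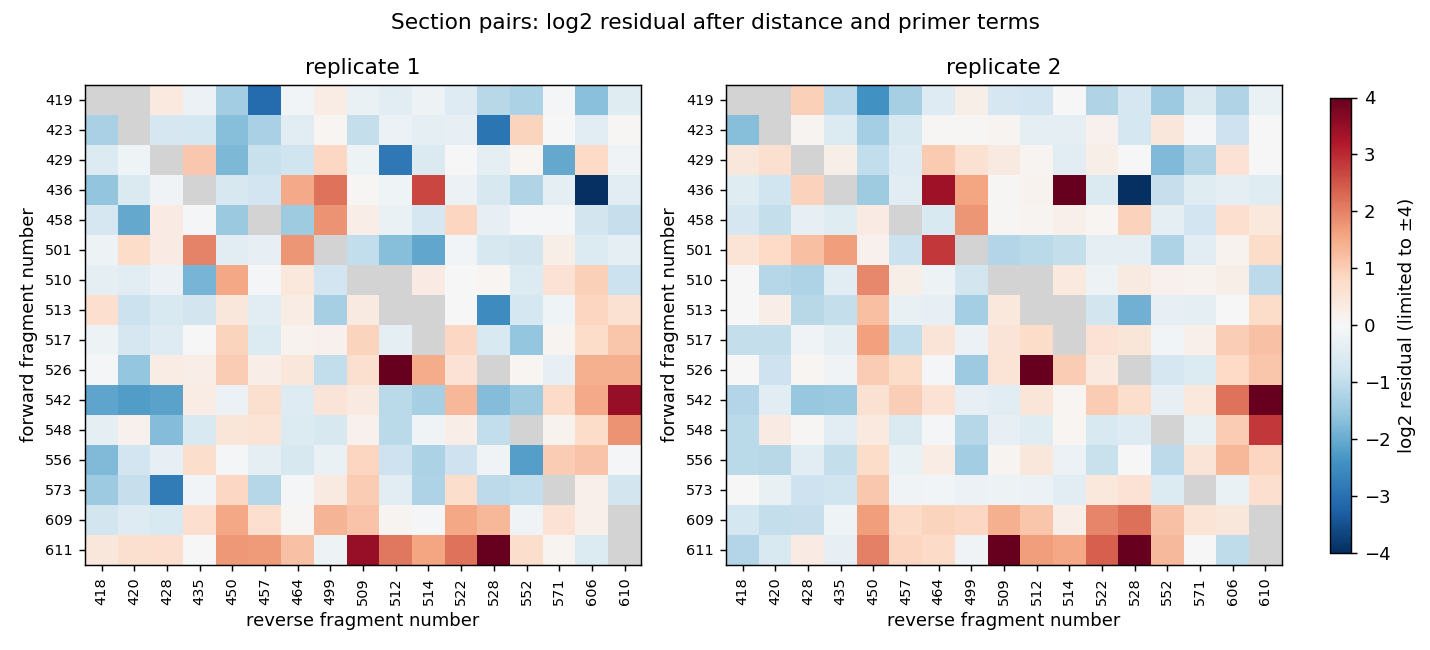
Log2 residual of every section pair, with forward fragments in rows and reverse fragments in columns, in genome order, for each replicate; grey cells are pairs under 10 kb apart. Residuals above 1 in both replicates are found in 27 cells, among them several of the bottom row (forward 611, with 4.26 and 5.11 at reverse 528), forward 526 with reverse 512 (4.74 and 4.82), reverse 610 with forward 542 (3.50 and 5.61) and the cell of forward 436 and reverse 514 (2.66 and 4.63).

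Of the 10 section pairs with the highest mean corrected ratio, 6 had a fragment of that edge, all 10 had a higher share in replicate 2, and 8 were over 4-fold apart between the replicates. The other 4 joined fragments elsewhere. Forward 526 with reverse 512, 72.7 kb apart, held 2051 and 10137 counts, with corrected ratios of 8.35 and 11.5 and the highest mean residual of the section (4.74 and 4.82). It was not called (q = 0.80 and 0.75 by the Weibull fit), but was called when the fit was made on the log2 scale. Forward 436 (chr12:115880011-115885590) had pairs that were high mainly in replicate 2. With reverse 514, 334 kb away, it held 165 counts in replicate 1 and 4785 in replicate 2, and with reverse 464, 114 kb away, it held 147 and 7456. The shares of these pairs were 23.8 and 41.7 times higher in replicate 2. Forward 501 (chr12:116168801-116169973) with reverse 464, which lie on either side of the 165 kb gap, held 561 and 11589 counts, a corrected ratio of 2.12 and 5.55.

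A pair with nearly equal ratios in the replicates crossed that gap. Forward 501 with reverse 435, 290 kb apart, held 2250 and 3934 counts, a ratio to the distance curve of 8.12 and 8.02 and a corrected ratio of 2.27 and 2.37. Forward 436, next to reverse 435, had residuals of 2.16 and 1.58 with reverse 499, next to forward 501, at 675 and 1793 counts. Adjoining fragments on both sides were thus high with either orientation of primers. Forward 458 (chr12:115974288-115975884) had 1.79 and 1.77 with reverse 499. Reverse 457, which adjoins forward 458, had -0.34 and -0.86 with forward 501. The pairs in this paragraph were picked with their values in view.

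Residuals above 1 in both replicates were found for 27 section pairs (10.6%), against 5.75% of all pairs, and below -1 for 14 (5.49%), against 4.22%. Of the 27 pairs, 16 were among the 60 pairs of the 4 edge fragments (26.7%), and the other 11 made up 5.64% of the rest of the section, near the share of the map. Residuals were above 0 in both replicates for 76 section pairs (29.8%), below the 33.2% of all pairs.

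The section was divided into 4 blocks of equal length, from block 1 nearest D to block 4. Residuals were highest between blocks 3 and 4, and those within single blocks 1 to 3 were at or below 0. Block 3 (chr12:116210001-116405000) with block 4 (chr12:116405001-116600000) had a median log2 residual of 0.75 and 0.99 over 33 pairs (0.87 ± 0.17, SD, n = 2), with 22 above 0 in both replicates. Without forward 611 the median was 0.72 and 0.77, and without forward 609 and forward 611 it was 0.74 and 0.59. Reverse 606 and reverse 610, of the same D-far edge, were kept in both of these medians. Residuals of reverse 571, outside that edge, ran from -0.33 and -0.55 (forward 526) to 1.02 and 0.52 (forward 556) with block 3. Those of forward 573 ran from -1.24 and -0.44 (reverse 514) to 0.71 and 0.43 (reverse 522). Whether blocks 3 and 4 are high apart from the edge fragments was not tested. Pairs within block 1 (chr12:115820001-116015000) had -0.68 and -0.51 over 29 pairs, and 18 of these were below 0 in both replicates. So were 105 of the 255 section pairs and 3421 of all 10415 pairs. The median count of the pairs within block 1 was 21 in replicate 1 and 284 in replicate 2. The 2 pairs within block 2 had medians of -0.88 and -0.96. Block 1 with block 2, across the long gap, had 0.07 and 0.19, block 1 with block 3 had -0.32 and -0.26, and block 1 with block 4 had -0.09 and -0.22. Within block 3 the replicates differed, at -0.71 and 0.00. Block 2 with block 4 had 0.48 and 0.14 over 12 pairs. By log2 corrected ratio, blocks 3 and 4 led in neither replicate, and their mean of -0.37 was barely above that of 2 other combinations. They had -0.52 and -0.22, blocks 2 and 4 had -0.22 and -0.53, and blocks 1 and 2 had -0.57 and -0.21. Pairs within block 1 had -2.16 and -1.29, and those within block 3 had -2.35 and -1.36. Pairs within a block are also the nearest in distance.

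**Figure D5:**
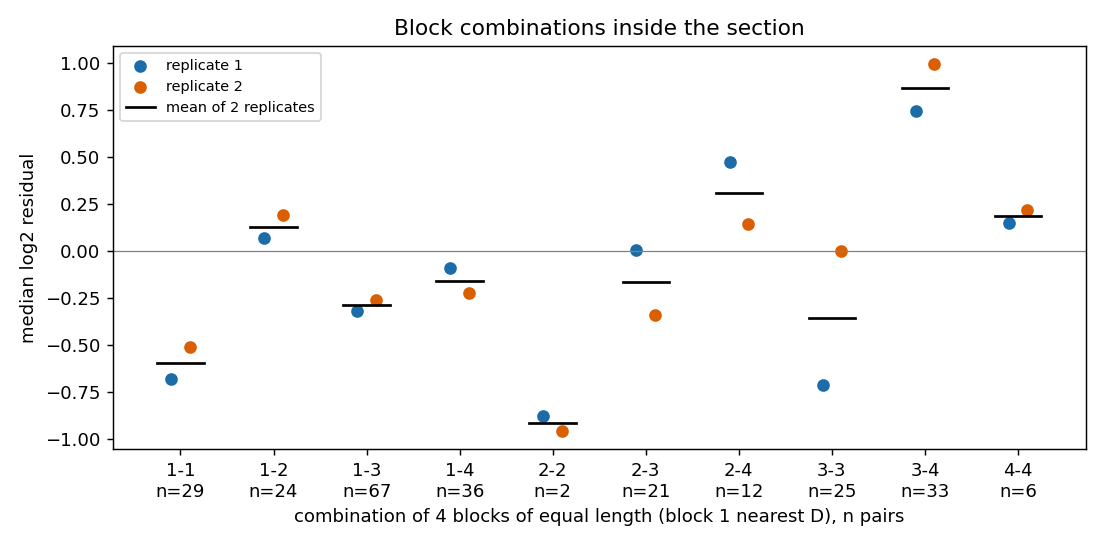
Median log2 residual of each combination of the 4 blocks, in replicate 1 and replicate 2 (points) with their mean (bar), and the number of pairs under each. Blocks 3 and 4 have 0.75 and 0.99, and pairs within block 1 have -0.68 and -0.51; the combination of block 2 with itself holds 2 pairs.

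Among single fragments, 3 of the 4 at the D-far edge had the highest medians with section partners. The median log2 corrected ratio was 0.43 and -0.09 for forward 611, -0.21 and 0.15 for forward 609 and -0.49 and -0.19 for reverse 610. The other edge fragment, reverse 606, had -1.21 and -0.59. After the leading 3 came reverse 450, with -0.74 and -0.17, and forward 526, with -0.65 and -0.49. With partners outside the section, forward 611 had -0.75 and -0.67, and forward 609 had -0.36 and -0.28. In log2 residuals forward 611 had 0.94 and 0.80 inside the section and -0.22 and -0.20 outside it. Forward 609 had 0.39 and 0.79 inside and -0.12 and -0.13 outside. Forward 611 also took the largest part of the section's counts in replicate 1, 25.5%, and 15.0% in replicate 2, where forward 556 took 17.2%.

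By log2 corrected ratio, the lowest medians belonged to reverse 552 (chr12:116364360-116366864), with -3.99 and -4.12, and forward 556 (chr12:116385510-116386658), with -1.73 and -1.47. Both had a large part of their counts in 1 pair with a partner above the section, which enters their primer factors. Forward 702 with reverse 552 held 59.2% and 86.0% of all counts of reverse 552 at 10 kb or more, and forward 556 with reverse 705 held 21.7% and 56.1% of those of forward 556. With primer factors fitted without called pairs, reverse 552 had -1.62 and -1.80, against a section median of -1.61 and -1.24 by that fit. Forward 556 had -1.87 and -1.49, little moved itself but nearer the section median than before, which had been -1.07 and -0.84. Of the D-far edge, reverse 606 was also part of such a pair, with forward 685, which held 64.2% and 40.3% of its counts. Reverse 457 (chr12:115972764-115974287), with -1.64 and -1.17, reverse 420 (chr12:115826300-115827627), with -1.58 and -1.23, and forward 513 (chr12:116215116-116216127), with -1.64 and -1.13, completed the 5 lowest. This order depended on the measure. With factors fitted without called pairs, reverse 420 (-2.38 and -2.03) and forward 419 (-2.04 and -2.22), near the D-near edge, had the lowest means. By log2 residual, reverse 420 (-0.63 and -0.71), reverse 418 (-0.55 and -0.68) and forward 419 (-0.47 and -0.68) were lowest on average. Reverse 552 had -0.71 and -0.37. All 5 of the lowest named pairs were pairs of reverse 552, from forward 556 (43 and 1628 counts, 20.5 kb apart) to forward 419 (3 and 10 counts, 540 kb apart). Outside this fragment, forward 513 with reverse 528 held 3 and 44 counts at 74.4 kb, where the distance curve gave 1428 and 2667. With primer factors, of which that of reverse 528 was low, 66.9 and 504 counts were expected, and the corrected ratios were 0.045 and 0.087. This pair was picked after its values were seen.

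Some section fragments had called contacts with the rest of the locus. Of the pairs with 1 fragment in the section, 6 of 2848 (0.211%) were called on counts, against 0.24% of all pairs, and 8 (0.281%) on corrected counts, against 0.317%. These shares were near those of the map. On counts 3 reached below the section and 3 above it, and on corrected counts 4 and 4. The pair joining reverse 41 (chr12:114528706-114531105) to forward 517 (chr12:116222484-116231679) over 1697.2 kb was called on both scales, at 11058 and 19017 counts and a ratio to the distance curve of 173 and 210. Distances are those of the mm9 build and take no account of DNA lost on joined alleles. The pair of reverse 41 and forward 517 had the highest ratio in replicate 1 of these called pairs. In replicate 2 forward 556 with reverse 705 was higher, at 499 (61.5 in replicate 1), with 6216 and 156364 counts. Reverse 81 (chr12:114664824-114667095) was called on counts only, with forward 419 (795 and 775 counts) and with forward 556 (2021 and 2985 counts). Forward 513 with reverse 403 (chr12:115788404-115792870), 425 kb apart and just below the section, was called on corrected counts only, at 4195 and 6265 counts and a ratio to the distance curve of 33.8 and 18.3. Forward 548 (chr12:116356077-116357168) with reverse 695 (chr12:116851010-116852283), called likewise, had 307 and 2710 counts at 495 kb. Forward 526 with reverse 83 (chr12:114667887-114670119) had 556 and 898 counts at 1614.5 kb, and forward 436 with reverse 1 (chr12:114339456-114341053) had 240 and 396 at 1542.5 kb. The partner of reverse 606, forward 685 (chr12:116809861-116811073), lay 269.6 kb above it, with 17063 and 26940 counts. Forward 609, reverse 610 and forward 611 were in none of these called pairs.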

How the data were processed

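The authors deposited whole-number counts of ligation products per primer pair, 1 matrix for each of 2 replicates, with totals of 14503618 and 17658603. Per the submitters' processing notes, Novoalign and mm9 were used. The file headers name my5C and a step called transpurge. Calculations were made in Python 3.11.15 with statsmodels 0.14.6 for curves, SciPy 1.17.1 for tests, NumPy 2.4.6 for arrays and matplotlib 3.10.9 for figures.

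Expected counts came, separately in either replicate, from lowess on log10 distance with a span of 0.3, over pairs at least 10 kb apart. A curve of squared residuals gave z, and a Weibull distribution fitted to z gave p, which was adjusted over 10415 pairs after Benjamini and Hochberg to q. Primer factors came from 50 rounds of mean observed over expected ratios. Ratios on the log2 scale used a pseudocount of 1. The log2 residual is the remainder after backfitting a distance curve and primer terms in 10 rounds. The procedures were also run on counts simulated around the fitted expected counts, with some section pairs raised. Those runs do not measure the error of the calls in the real counts.

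The named pairs are those called, the 10 highest by mean log2 corrected ratio, and the 5 lowest with over 10 counts expected from distance and primers. The named fragments are the 5 highest and 5 lowest. The members, regions and rules were chosen with earlier results of these data known. Region differences were compared over the 2 replicates by exact sign-flip permutation. No mm9 genome or annotation was used here, so no fragment sequence is given.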

Additional observations from a re-analysis of the deposited data

How the results depend on the processing

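No paired analysis was possible because there was 1 group. On counts, spans of 0.1 and 0.6 each called 1 section pair in both replicates (forward 611 with reverse 509). They called 28 and 23 of all 10415 pairs, against 25 in the main run. Replicate 1 alone called 1 section pair of 45 in all, and replicate 2 alone 0 of 38. On corrected counts, a span of 0.1 called 2 section pairs of 36 in all, and the log2 scale called 2 of 25. Primer factors without called pairs called 0 of 17, where the main run called 1 of 33. Replicate 1 alone called 1 of 47 and replicate 2 alone 3 of 41. With the mean of the ratios in place of the median, the log2 ratio of section pairs on counts was -0.135. It was -0.445 in replicate 1 and 0.175 in replicate 2. On corrected counts the mean of ratios gave -0.206, from -0.440 in replicate 1 and 0.028 in replicate 2. The corrected median was -0.091 with log-additive primer terms, -1.93 without primer correction and -1.43 with primer factors fitted without called pairs. The difference from the region above ran from -0.63 to 0.025 with 1 replicate left out, so replicate 1 decides its sign. The difference from the region below turned to 0.0736 with the mean of ratios (-0.101 in replicate 1 and 0.248 in replicate 2) and to 0.48 without primer correction. Leaving out forward 609 and forward 611, with reverse 606 and reverse 610 kept in, moved the residual of blocks 3 and 4 to 0.67. The difference from the rest of the locus and the slope kept their sign in the mean of both replicates under each alternative run. Why these values moved was not tested. The factors without section pairs or called pairs, the matched distances and the omitted fragments were chosen after the data were seen. Pairs beyond 400 kb in replicate 1, with a median of 13.5 counts, are where depth limits single values most.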
